A study of Mus musculus with 9 samples.

Results

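Neuropeptide receptors were followed across 3 pools of mouse motor neurons through 10 receptor genes, named by symbol: Trhr, Hcrtr2, Tacr1, Avpr1a, Oxtr, Cckbr, Ntsr1, Ntsr2, Sstr2 and Adcyap1r1. A gene was measured by every probe set (a group of short probes for 1 transcript) that the array's annotation gives to that symbol alone. This rule for probe sets used no measured value, but the 10 receptors were chosen with earlier results of these data known. It found 16 probe sets, which covered all 10 receptors, among 18193 genes with a probe set of their own. The neurons were cut by laser from cresyl violet-stained sections of untreated wild-type male C57BL/6J mice at postnatal day 7. The pools were lumbar motor neurons of segment L5 (L5), motor neurons of the dorsolateral nucleus at the L6 level (DL) and oculomotor motor neurons of the midbrain (OMN), with 3 arrays each. About 200 neurons of each pool came from each of 3 animals, and their RNA was amplified before hybridisation. The labels name the stain and no transgene or reporter that marked the cells.

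Neuropeptides are cut from larger precursors, stored in dense-core vesicles and released to act, mostly slowly, on receptors that couple to G proteins. In the spinal cord and brainstem, peptides such as thyrotropin-releasing hormone, substance P and orexin are known to raise the excitability of motor neurons, in large part by closing potassium channels. In rodents, L5 motor neurons drive hindlimb muscles, the dorsolateral nucleus supplies sphincter and perineal muscles of the pelvis, and oculomotor neurons move the eye. The values are intensities on a linear scale, and 18.3, the highest value of the control probe sets for unspiked bacterial transcripts, was taken as the noise level. Values at or below it have no order among themselves. Each probe set responds to its transcript with its own strength, so that levels are compared here between pools and never between receptors.

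Calls below are limma adjusted p-values under 0.05 over all 18193 genes, and 6 of the 10 receptors passed in at least 1 comparison. Trhr, Hcrtr2 and Tacr1 were higher in L5 than in DL, and Avpr1a was lower. Between DL and OMN, Avpr1a and Ntsr2 were higher in DL while Hcrtr2, Tacr1 and Cckbr were lower. Trhr was the receptor called between L5 and OMN, where it was higher in L5. Ntsr1, Sstr2, Adcyap1r1 and Oxtr were called in no comparison.

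The counts stand beside the following background. In L5 against OMN 1 receptor was higher and 0 were lower, where 2.15% of all genes were called, 0.951% higher and 1.20% lower. In L5 against DL 3 were higher and 1 lower, where 2.52% of all genes were called, 1.25% higher and 1.27% lower. In DL against OMN 2 were higher and 3 lower, where 3.00% of all genes were called, 1.36% higher and 1.64% lower. At an unadjusted limma p under 0.05 the counts were 6 receptors in L5 against OMN (2904 of all 18193 genes), 5 in L5 against DL (3440, or 18.9%) and 6 in DL against OMN (2920, or 16.1%). With 10 receptors, 1 gene is a large share, and the shares were not tested. The receptors were chosen with earlier results of these data known, so an excess over the share of all genes is not read as a result. The median log2 difference of the 10 was -0.29, 0.02 and -0.91 in that order, against 0.01, 0.06 and -0.04 over all genes. By the values as deposited, those below noise included, the arrays of both pools did not overlap for 5 receptors in L5 against OMN, where the share over all genes was 27.4%, for 5 in L5 against DL (23.4%) and for 7 in DL against OMN (21.1%).

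**Figure D1:**
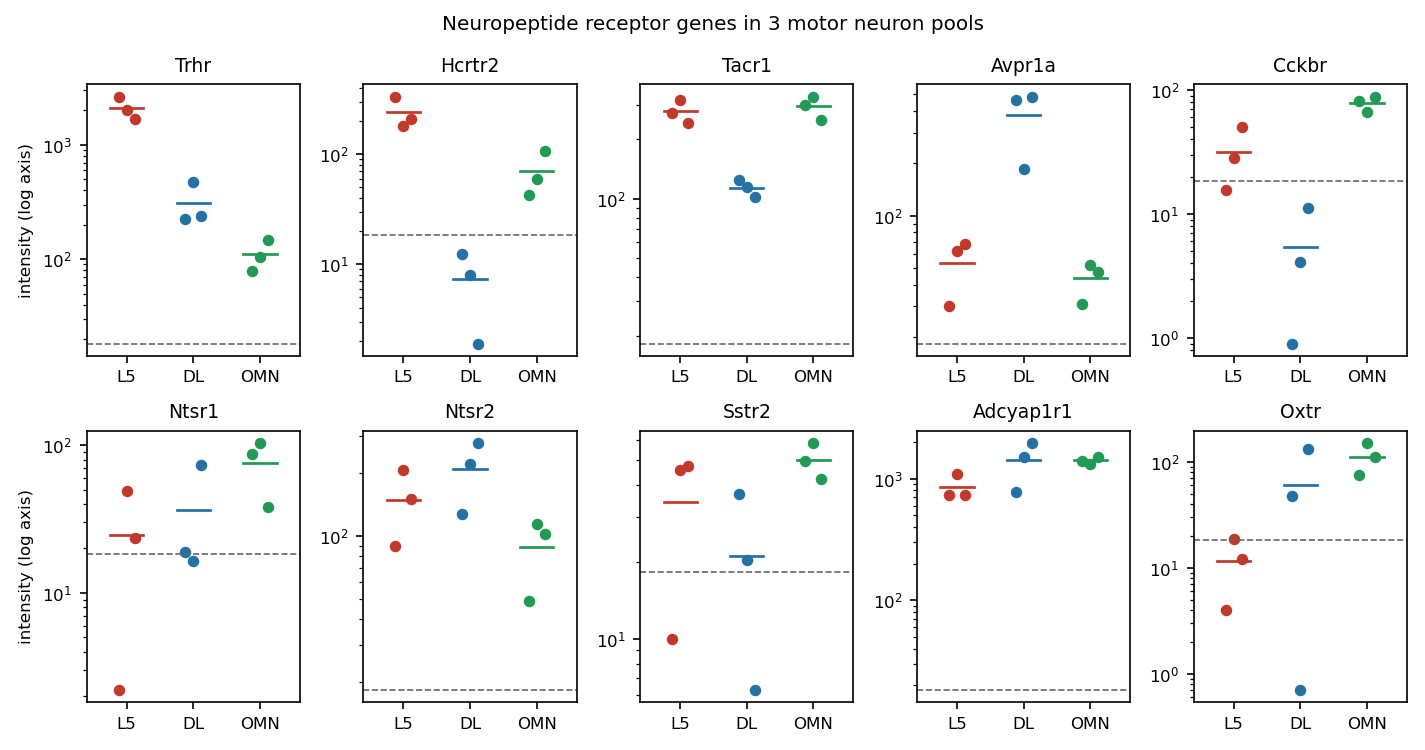
Intensity of each receptor on each array (log axis, no units), with the gene's own probe set, for L5, DL and OMN. Points are the 3 arrays of a pool, short bars their mean, and the dashed line the noise level of 18.3. Trhr stands highest in L5, Avpr1a in DL and Cckbr in OMN, while the 3 Hcrtr2 values of DL lie under the line.

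Some facts of the whole series touch these results. Every array had a trimmed mean of 250 and a median between 26.4 and 35.5. DL arrays varied more among themselves, with a median SD of 0.294 in DL, 0.204 in L5 and 0.171 in OMN on the log2 scale over the 7120 genes with a mean above 200. The array's control probe sets for the 3' and 5' ends of Gapdh give a ratio that climbs as RNA breaks down. DL arrays 1 and 3 stood apart in this Gapdh ratio at 3.27 and 3.75, against 2.44 on DL array 2 and 2.33 to 2.67 on the arrays of L5 and OMN. The corresponding ratio for actin did not set DL array 1 apart, at 0.934 and 0.995 on DL arrays 1 and 3, against 0.807 on DL array 2 and 0.900 to 0.934 on the L5 and OMN arrays. The log2 difference of each DL call is therefore also given without DL arrays 1 and 3. For the receptors it stands beside the call, and for the genes of other lists in 1 paragraph after them. That leaves 1 DL array, which has no spread of its own. The fit therefore cannot show whether a call holds, and no p-value of it is given in the text. The cholinergic markers Slc18a3 and Slc5a7 were bright everywhere, with a lowest value of 773.8 for Slc18a3 on DL array 3. The probe set of Chat, the acetylcholine-synthesising enzyme, did not exceed 24.5 on any array, so it cannot check the cell type. Of 9 measured motor neuron markers, the spinal gene Mnx1 lay below noise on all OMN arrays and at 71.3 or more on the L5 and DL arrays. Isl1, a motor neuron transcription factor, averaged 598 in L5, 2717 in DL and 2129 in OMN, lower in L5 than in DL (limma adjusted p = 0.00743) and than in OMN (0.0119). Prph, a neuronal filament gene, averaged 10257 in L5, 8626 in DL and 4844 in OMN, higher in L5 than in OMN (limma adjusted p = 0.0348). Phox2a, a midbrain motor neuron factor, exceeded noise on 1 OMN array and 1 L5 array.

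Markers of other cells also differed between pools. All 9 measured oligodendrocyte markers exceeded noise on some array, and their summed intensity was 16027 to 17122 in L5, 22862 to 24956 in DL and 12664 to 14352 in OMN. By limma adjusted p, 3 of the 9 were lower in L5 against DL, and 3 were higher in DL against OMN. For the 12 astrocyte markers, all above noise on some array, the sums were 23130 to 24694 in L5, 19034 to 21439 in DL and 18567 to 19130 in OMN. Gfap, an astrocyte filament gene, averaged 325 ± 82.4 in L5, 1550 ± 683 in DL and 18.0 in OMN, where it was near noise. Another astrocyte gene, Slc7a10, moved the other way, with means of 271 in L5, 101 in DL and 217 in OMN, and was higher in L5 against DL (limma adjusted p = 0.0436). The 4 measured inhibitory interneuron markers summed to 1628 to 2232 in L5, 5017 to 5875 in DL and 1852 to 2674 in OMN. They did not move together in L5 against OMN, where 1 was called higher and 2 lower. Slc6a5 averaged 551 in L5, 707 in DL and 22.6 in OMN, and Gad2 averaged 269, 2340 and 1312. In L5 against DL 2 were called lower, and in DL against OMN 2 were called higher. The 5 measured Schwann and sensory ganglion markers did not move together. Pmp22, a myelin gene, averaged 2060 in L5, 875 in DL and 135 in OMN, whereas the sensory neuron genes Pirt (15.4 in L5, 883 in DL, 35.9 in OMN) and Scn11a (19.9 in L5, 609 in DL, 26.4 in OMN) were high in DL. All 3 were called in L5 against DL, 1 higher and 2 lower, and all 3 were higher in DL against OMN. The sums of the 5 were 1919 to 2280 in L5, 2074 to 2976 in DL and 201 to 264 in OMN. The 4 excitatory interneuron markers, 3 of them above noise on some array, summed to 415 to 519 in L5, 156 to 304 in DL and 991 to 1253 in OMN. Among these Slc17a6, a glutamate transporter gene, averaged 456 in L5, 202 in DL and 1124 in OMN and was called in every comparison. For 6 catecholamine neuron markers the sums were 375 to 551 in L5, 330 to 1319 in DL and 927 to 1003 in OMN. Slc18a2 was the brightest of them, at 1220.6 on DL array 3. Of the 6, 3 were called lower in L5 against OMN and 3 in DL against OMN. In DL against OMN these were Th (limma adjusted p = 0.0198), Ddc (0.0102) and Slc6a2 (0.0340). Th and Slc6a2 averaged below noise in L5 and DL, and 88.9 and 46.6 in OMN. Ddc averaged 43.6 in L5, 33.8 in DL and 140 in OMN. The 5 blood vessel markers summed to 502.8 to 848.7 in L5, 1049.3 to 1607.3 in DL and 888.5 to 988.8 in OMN, with no call. For the 8 microglia markers the sums were 949.7 to 1019.5 in L5, 582 to 1222.7 in DL and 788.7 to 1129.2 in OMN, with no call. In material cut from tissue, fewer cells of a type and less RNA per cell cannot be told apart. The part of these cells in the receptor values was not tested.

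Trhr, the receptor for thyrotropin-releasing hormone, couples to Gq and phospholipase C. Its intensity was 2633, 2028 and 1693 on the L5 arrays, 223.9, 472 and 240.9 on the DL arrays and 78.9, 105.2 and 148.2 on the OMN arrays. No array of any pool overlapped another pool, with L5 highest, DL between and OMN lowest. Mean intensity was 2118 ± 476 in L5, 312 ± 139 in DL and 111 ± 35 in OMN (SD, n = 3 each). The log2 difference was 4.09 ± 0.34 between L5 and OMN (SE, limma adjusted p = 0.00250, a 19.1-fold ratio of means). Between L5 and DL it was 2.76 ± 0.34 (adjusted p = 0.0125, 6.78-fold). Between DL and OMN it was 1.33 ± 0.34 and did not pass (adjusted p = 0.104). The L5 to OMN call held on leaving out any 1 of the 9 arrays, with limma adjusted p from 0.00331 to 0.0262. The L5 to DL call was lost without any 1 of the L5 arrays or without DL array 1 (0.0573 to 0.0649). Without DL arrays 1 and 3 its log2 difference was 2.07.

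A second Trhr probe set read the same order for L5. It gave 785.1, 724 and 679.4 in L5, 11.3, 74.4 and 161.3 in DL and 20.3, 16 and 30.3 in OMN. The L5 values lay far above all others, while DL and OMN overlapped. In the limma fit over all 45037 probe sets, in which 1.03% passed between L5 and OMN, 1.37% between L5 and DL and 1.92% between DL and OMN, its log2 difference was 4.30 ± 0.51 between L5 and OMN (adjusted p = 0.0147). It was 3.29 ± 0.51 between L5 and DL (adjusted p = 0.0358), and 1.01 between DL and OMN (adjusted p = 0.438).

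Hcrtr2 binds both orexins, peptides of hypothalamic neurons that promote waking. Its intensity was 333.9, 179.9 and 210 in L5, 12.3, 8 and 1.9 in DL and 42.4, 60.1 and 107.9 in OMN. Every DL array lay below noise, every L5 and OMN array lay above it, and L5 did not overlap OMN. L5 exceeded DL at least 12.7-fold (log2 3.44 ± 0.36, limma adjusted p = 0.00723), with a mean of 241 ± 81.6 in L5 (SD, n = 3). OMN, at 70.1 ± 33.9, exceeded DL at least 3.55-fold, a log2 difference of -1.83 ± 0.36 for DL against OMN (adjusted p = 0.0460). The log2 difference between L5 and OMN was 1.60 ± 0.36, with a 3.44-fold ratio of means, and missed the threshold (adjusted p = 0.0853). With no replicate block it passed (adjusted p = 0.0342). The L5 to DL call was lost without L5 array 1 (limma adjusted p = 0.0525). The DL to OMN call was lost on leaving out any array but OMN array 1 (0.0629 to 0.177) and with each array centred on its median (0.0606). It was also lost with quantile normalization, with a pseudocount of 1 or of 64 and with array weights. The fit of DL and OMN arrays only, the Gapdh ratio as a covariate and the fit over all probe sets (limma adjusted p = 0.0588) ended it as well. Without DL arrays 1 and 3 the log2 difference was 3.15 for L5 against DL and -1.54 for DL against OMN.

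Tacr1, the receptor that prefers substance P, also couples to Gq. Its intensity was 272.8, 317.8 and 242.9 in L5, 124.6, 114.1 and 102.3 in DL and 300, 328.8 and 252.1 in OMN. All DL arrays lay below all others, and the L5 and OMN arrays were interleaved. The mean was 278 ± 37.7 in L5, 114 ± 11.2 in DL and 294 ± 38.7 in OMN (SD, n = 3 each). L5 was 2.44-fold above DL (log2 1.18 ± 0.18, limma adjusted p = 0.0223), and DL lay 2.58-fold below OMN (log2 -1.25 ± 0.18, adjusted p = 0.0135). The difference between L5 and OMN was -0.08 ± 0.18 (adjusted p = 0.884). Both calls sat close to the threshold. The first was lost on leaving out any 1 of the 9 arrays (limma adjusted p 0.0514 to 0.120), and the second without DL array 2 or any 1 of the OMN arrays (0.0522 to 0.0829). Without DL arrays 1 and 3 the log2 differences were 1.34 and -1.42.

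The stretches just upstream of Hcrtr2 and Tacr1 are shown because these receptors were both lower in DL than in the other pools and both hold the E-box CAGCTG, a site of basic helix-loop-helix factors, in the 250 bases before the gene start. Sequences are from RefSeq on GRCm38.p6, 5' to 3' on the strand of the gene, at chr9:76323624-76323873 on the minus strand for Hcrtr2 and chr6:82402225-82402474 on the plus strand for Tacr1. Capitals mark the CAGCTG.
Hcrtr2: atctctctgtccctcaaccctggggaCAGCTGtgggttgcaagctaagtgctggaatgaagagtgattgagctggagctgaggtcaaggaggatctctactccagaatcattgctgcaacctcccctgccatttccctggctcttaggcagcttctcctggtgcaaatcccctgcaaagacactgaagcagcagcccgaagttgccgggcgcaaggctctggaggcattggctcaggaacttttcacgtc
Tacr1: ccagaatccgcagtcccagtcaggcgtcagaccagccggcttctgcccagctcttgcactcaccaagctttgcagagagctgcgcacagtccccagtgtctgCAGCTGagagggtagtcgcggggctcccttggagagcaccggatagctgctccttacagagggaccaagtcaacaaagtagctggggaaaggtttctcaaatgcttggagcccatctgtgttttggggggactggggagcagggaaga
The site begins 224 bases before the start of Hcrtr2 and 148 bases before that of Tacr1. CAGCTG was present in 13.0% of the same stretches of 32851 promoters, and in 2 of the 9 receptors with an entry. The match is of letters only.

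Avpr1a, the Gq-coupled receptor through which vasopressin acts on neurons and vessels, was higher in DL than in both other pools. Its intensity was 30.2, 62.4 and 68.3 in L5, 465.2, 185.5 and 483.3 in DL and 31, 52.1 and 47.4 in OMN. All DL arrays exceeded all others, DL array 2 by the least, and L5 and OMN overlapped. The mean was 53.6 ± 20.5 in L5, 378 ± 167 in DL and 43.5 ± 11.1 in OMN (SD, n = 3 each). The log2 difference between L5 and DL was -2.44 ± 0.39 (limma adjusted p = 0.0261, 7.05-fold higher in DL). Between DL and OMN it was 2.63 ± 0.39 (adjusted p = 0.0149, 8.69-fold), and between L5 and OMN 0.20 ± 0.39 (adjusted p = 0.858). DL arrays 1 and 3, with the highest Avpr1a values, were also those with the high Gapdh ratio, whose part was not tested apart from the following values. Without them the log2 difference was -1.37 for L5 against DL and 1.56 for DL against OMN. With the ratio as a covariate the differences were -1.78 (limma adjusted p = 0.113) and 1.98 (0.0766). Leaving out 1 array ended the L5 to DL call for any array but DL array 2 and OMN array 2 (0.0530 to 0.118). It ended the DL to OMN call for DL array 3 or any 1 of the OMN arrays (0.0508 to 0.0929).

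The second Avpr1a probe set lay near noise, above it on 3 of 9 arrays. It gave 7.2, 9.7 and 1.8 in L5, 30.5, 18.3 and 2.5 in DL and 2.6, 19.8 and 19.4 in OMN, with all pools overlapping. With the mean of both probe sets the log2 differences were -1.46 for L5 against DL (limma adjusted p = 0.0527) and 1.37 for DL against OMN (0.0567). In DL, where Avpr1a was high, the oligodendrocyte, inhibitory and blood vessel sums and the Gfap, Pirt and Scn11a values given above were high too. Within the inhibitory sum, Slc6a5 did not pass in L5 against DL (limma adjusted p = 0.661), nor Gad1 in DL against OMN (0.919). The astrocyte sum was lower than in L5 and its range overlapped that of OMN. The part of these cells in the Avpr1a values was not tested.

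Oxtr, the oxytocin receptor and a close relative of Avpr1a, stood high in OMN by its brighter probe set. The intensity was 4, 18.6 and 12.1 in L5, 47.4, 0.7 and 131.5 in DL and 75, 149.6 and 110.9 in OMN. OMN did not overlap L5, and DL spread from below noise to the range of OMN, again with arrays 1 and 3 high. OMN, at 112 ± 37.3 (SD, n = 3), exceeded L5 at least 5.85-fold, but the log2 difference of -2.21 ± 0.66 did not pass (limma adjusted p = 0.167). The differences between L5 and DL (-1.0, adjusted p = 0.473) and between DL and OMN (-1.20, adjusted p = 0.449) did not pass either. On leaving out single arrays the log2 difference ran from -2.71 to -1.67 for L5 against OMN, from -2.04 to -0.30 for L5 against DL and from -1.91 to -0.17 for DL against OMN. Without DL array 2, whose Gapdh ratio was like that of the other pools, L5 against DL passed at -2.04 (limma adjusted p = 0.0317) and L5 against OMN with its difference as before (0.00939). L5 against OMN also passed with only the arrays of both pools (0.00925) and with trend and robust variances (0.0479). With DL arrays 1 and 3 left out, the log2 difference was 1.08 for L5 against DL and -3.28 for DL against OMN. For L5 against OMN that is the same fit as with only the arrays of both pools, so it adds nothing. With the Gapdh ratio as a covariate L5 against OMN passed at -2.20 (limma adjusted p = 0.0118) and DL against OMN at -2.71 (0.0258). The other Oxtr probe set gave 1.7, 4 and 20.9 in L5, 4.9, 1.9 and 16.9 in DL and 51.5, 32.1 and 17.5 in OMN, with no call (limma adjusted p of 0.310 for L5 against OMN and 0.266 for DL against OMN).

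**Figure D2:**
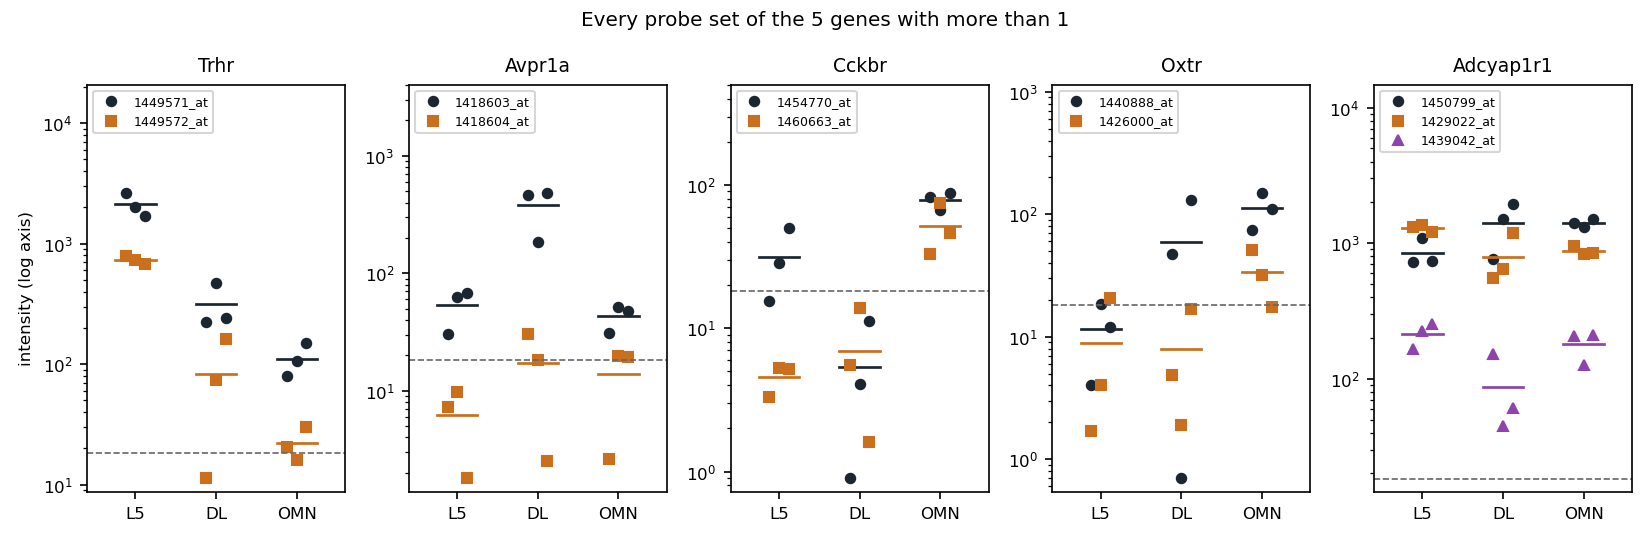
Intensity on each array (log axis, no units) of every probe set of the 5 receptors that have more than 1, for L5, DL and OMN, with pool means as bars and the noise level of 18.3 dashed. Both Trhr probe sets are highest in L5 and both Cckbr probe sets in OMN, whereas the dimmer Avpr1a probe set lies near noise and the 3 Adcyap1r1 probe sets order the pools differently.

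Cckbr binds cholecystokinin and gastrin and is the cholecystokinin receptor most abundant in the brain. Its intensity was 15.5, 28.4 and 50 in L5, 0.9, 4.1 and 11.2 in DL and 81.9, 66.7 and 88 in OMN. OMN lay above both other pools. DL was below noise on every array and L5 on array 1 alone, so that L5 array 1 has no order against DL. L5 arrays 2 and 3 lay above noise and above every DL array. OMN, at 78.9 ± 11 (SD, n = 3), exceeded DL at least 4.28-fold (log2 -2.17 ± 0.23 for DL against OMN, limma adjusted p = 0.00459). That call held on leaving out any 1 of the 9 arrays (0.00841 to 0.0288) and when the Gapdh ratio entered as a covariate (0.0420). Without DL arrays 1 and 3 the log2 difference was -2.12. The log2 difference was -1.06 ± 0.23 between L5 and OMN (adjusted p = 0.0754) and 1.11 ± 0.23 between L5 and DL (adjusted p = 0.0585), neither past the threshold.

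The second Cckbr probe set was above noise in OMN only. It gave 3.3, 5.3 and 5.2 in L5, 5.5, 13.8 and 1.6 in DL and 32.8, 75.1 and 46.1 in OMN. The OMN arrays stood apart from both other pools, which cannot be ordered below noise. In the fit over all probe sets OMN exceeded L5 at least 2.65-fold (log2 -1.66 ± 0.23, limma adjusted p = 0.0273), and exceeded DL by at least the same factor (log2 -1.54 ± 0.23, adjusted p = 0.0243). With the mean of both probe sets L5 against OMN passed at log2 -1.36 (adjusted p = 0.00792).

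The upstream stretches of Avpr1a and Cckbr are printed because Avpr1a was higher in DL than in both other pools and Cckbr was lower in DL than in OMN. They lie at chr10:122448249-122448498 and chr7:105425481-105425730, both on the plus strand of GRCm38.p6 (RefSeq). Capitals mark TATAAA, the TATA box core, in Avpr1a, and the E-box CACGTG in Cckbr.
Avpr1a: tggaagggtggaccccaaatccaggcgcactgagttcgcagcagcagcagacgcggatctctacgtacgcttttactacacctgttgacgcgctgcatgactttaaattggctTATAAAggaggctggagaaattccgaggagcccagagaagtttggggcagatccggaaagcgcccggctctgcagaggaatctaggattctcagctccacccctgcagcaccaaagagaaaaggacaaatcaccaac
Cckbr: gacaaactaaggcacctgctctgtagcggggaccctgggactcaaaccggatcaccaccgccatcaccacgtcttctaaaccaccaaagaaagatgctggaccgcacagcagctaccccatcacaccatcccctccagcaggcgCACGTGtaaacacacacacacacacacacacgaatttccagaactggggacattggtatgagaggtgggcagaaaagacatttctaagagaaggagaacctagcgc
TATAAA begins 137 bases before the start of Avpr1a and CACGTG 106 bases before that of Cckbr. Of all promoters, 12.4% held TATAAA and 6.02% held CACGTG within the 250 bases. Among the receptors, Avpr1a alone had TATAAA, while Cckbr, Ntsr2 and Oxtr had CACGTG.

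In all, 5 motifs were searched on both strands, and 0 sites of different motifs overlapped in the receptors. The homeodomain core TAATTA was in 4.84% of all promoters and in 0 of the receptors. The GC box GGGCGG was in 32.7% of all promoters and in Sstr2, Adcyap1r1 and Oxtr. The G and C content of the 9 stretches ran from 53.6% in Avpr1a and Cckbr to 68.4% in Ntsr1, against a median of 52.4% over all promoters. The dinucleotide CG occurred 4 times in Hcrtr2 and in Ntsr2 and 18 times in Ntsr1 and in Sstr2, with a median of 6 over all promoters.

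Neurotensin has 2 receptors here, and neither gave a difference that held under every setting. Ntsr2, the low-affinity receptor, which in the brain is known from astrocytes as well as neurons, had 89.5, 207.2 and 150.3 in L5, 127.5, 220.3 and 277.8 in DL and 48.8, 113.7 and 102 in OMN. DL did not overlap OMN, and L5 overlapped both. The mean was 149 ± 58.9 in L5, 209 ± 75.8 in DL and 88.2 ± 34.6 in OMN (SD, n = 3 each). DL was 2.37-fold above OMN (log2 1.11 ± 0.20, limma adjusted p = 0.0358). With no replicate block this call was lost (adjusted p = 0.175), as it was on leaving out any 1 of the 9 arrays (0.0505 to 0.154). Without DL arrays 1 and 3 the log2 difference between DL and OMN was 0.80. The difference was 0.66 ± 0.20 between L5 and OMN (adjusted p = 0.178) and -0.45 between L5 and DL (adjusted p = 0.293).

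Ntsr1, the high-affinity receptor, was dim. It gave 2.2, 48.7 and 23.4 in L5, 18.9, 16.4 and 73.7 in DL and 87.7, 103 and 38.4 in OMN. All pools overlapped, and 1 L5 and 1 DL array were below noise. No difference passed, with log2 values of -1.28 for L5 against OMN, -0.38 for L5 against DL and -0.91 for DL against OMN, each with an SE of 0.56 (limma adjusted p of 0.318, 0.780 and 0.500).

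Sstr2, an inhibitory somatostatin receptor that couples to Gi, was dim as well. Its values were 10, 45.6 and 47.4 in L5, 36.8, 20.4 and 6.3 in DL and 49.8, 58.2 and 42.2 in OMN. DL lay below OMN without overlap, and L5 overlapped both. The log2 differences were -0.49 for L5 against OMN, 0.41 for L5 against DL and -0.91 for DL against OMN, each with an SE of 0.43 (limma adjusted p of 0.638, 0.666 and 0.368).

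Adcyap1r1, the receptor of pituitary adenylate cyclase-activating polypeptide, raises cyclic AMP through Gs. It was far above noise in every pool, and its 3 probe sets did not order the pools alike. The probe set used for the gene gave 731.5, 1082 and 732.6 in L5, 767.9, 1509 and 1944 in DL and 1400, 1321 and 1511 in OMN. All L5 arrays lay below all OMN arrays, and DL overlapped both. Its log2 difference was -0.74 ± 0.30 for L5 against OMN (limma adjusted p = 0.294), -0.64 for L5 against DL (0.310) and -0.10 for DL against OMN (0.925).

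The second Adcyap1r1 probe set was higher in L5. It gave 1307, 1364 and 1207 in L5, 556.3, 640.9 and 1190 in DL and 945.8, 834.5 and 841 in OMN. Its L5 values exceeded all others, though by little over DL array 3. The third gave 165, 224.2 and 251.5 in L5, 152.9, 45.1 and 60.4 in DL and 206.2, 126.1 and 211.1 in OMN, with DL below L5 and overlapping OMN. Neither passed, with log2 differences for L5 against DL of 0.77 (limma adjusted p = 0.240) and 1.29 (0.145), for L5 against OMN of 0.56 (0.451) and 0.23 (0.850) and for DL against OMN of -0.21 (0.822) and -1.06 (0.234). A gene-level direction for Adcyap1r1 is therefore not given.

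**Figure D3:**
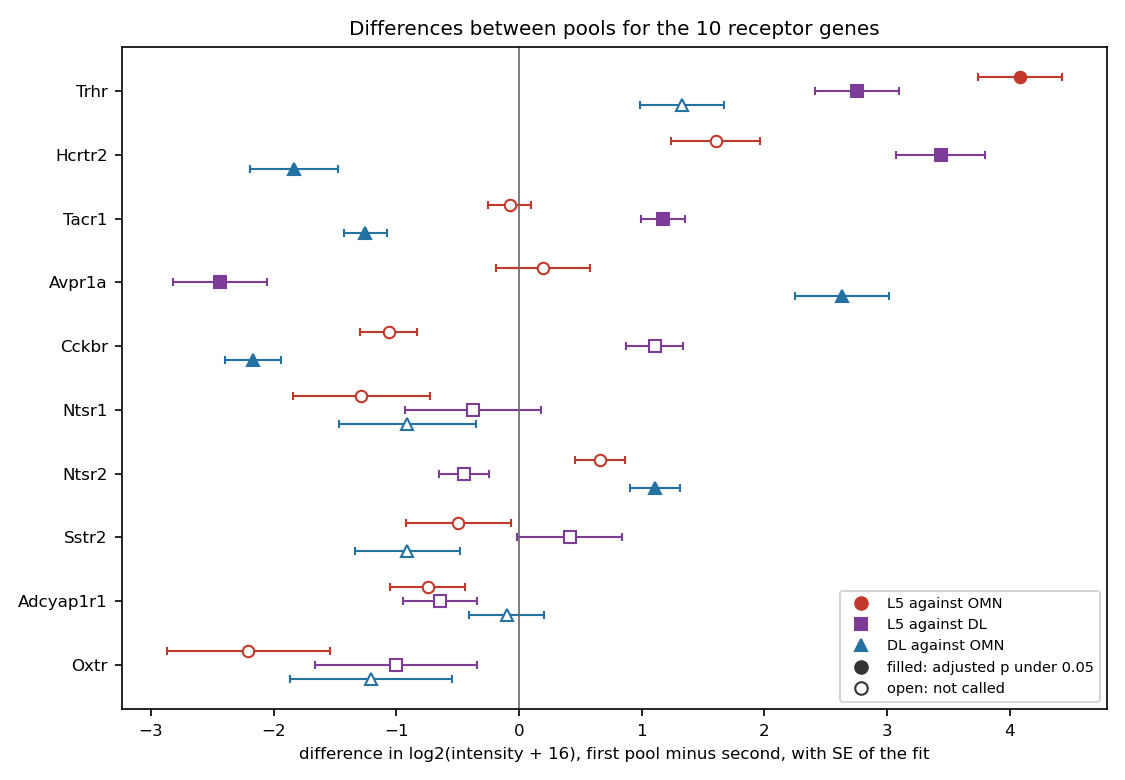
Log2 difference of each receptor in L5 against OMN, L5 against DL and DL against OMN, on the log2(intensity + 16) scale with SE bars from limma. Filled points passed an adjusted p of 0.05 and open points did not. Trhr stands at 4.09 and 2.76 in the L5 comparisons, and Avpr1a at -2.44 in L5 against DL and 2.63 in DL against OMN.

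**Figure D4:**
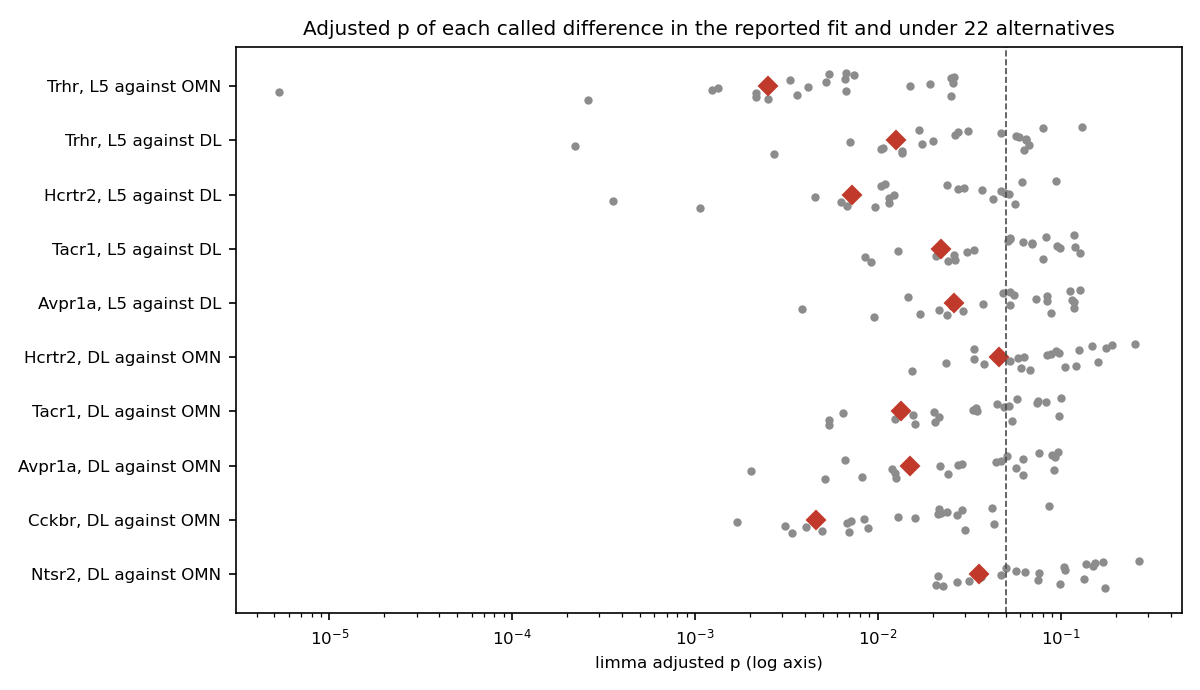
Limma adjusted p of the 10 called differences under each alternative setting (log axis). Red diamonds are the reported fit, grey points the alternatives and the dashed line the threshold of 0.05. The values of Trhr in L5 against OMN stay under the line in all 22 settings. Those of Cckbr in DL against OMN do so in all but 1, the fit that leaves 1 DL array and cannot show whether a call holds. Those of Hcrtr2 and Ntsr2 in DL against OMN cross it in most.

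The peptide precursors of these receptors were read from a list of 13 genes, of which 9 exceeded noise on some array. In L5 against OMN 2 were higher and 1 lower, in L5 against DL 1 was higher and 1 lower, and in DL against OMN 2 were higher and 1 lower. Their median log2 differences were -0.13, -0.14 and -0.11 in that order. A precursor made by a motor neuron says nothing on where its peptide is released, and the 3 comparisons share arrays.

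Nts, the neurotensin precursor, had 4232, 3419 and 2587 in L5, 29.1, 100.4 and 93 in DL and 270.9, 289 and 239.5 in OMN. No pool overlapped another, with L5 highest and DL lowest. Nts was 12.8-fold higher in L5 than in OMN (log2 3.58 ± 0.37, limma adjusted p = 0.00557) and 46.0-fold higher than in DL (log2 5.34 ± 0.37, adjusted p = 0.00268), and DL against OMN missed the threshold (-1.76 ± 0.37, adjusted p = 0.0582). Its receptor gene Ntsr2 had its lowest mean in OMN, and passed in DL against OMN alone.

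Tac1, the substance P precursor, had 347, 263.3 and 219.3 in L5, 2408, 2033 and 2502 in DL and 195, 339 and 403.8 in OMN. DL stood above both other pools without overlap, whereas its receptor gene Tacr1 stood below them in DL. Tac1 in L5 fell by 3.01 ± 0.31 on the log2 scale relative to DL (limma adjusted p = 0.00720), and DL exceeded OMN by 2.88 ± 0.31 (adjusted p = 0.00476).

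Sst, the somatostatin precursor, had 2473, 3727 and 4694 in L5, 4025, 4568 and 3737 in DL and 469.5, 272.4 and 353.5 in OMN. Both spinal pools lay above OMN and overlapped each other. The log2 difference was 3.24 ± 0.31 for L5 against OMN (limma adjusted p = 0.00366) and 3.46 ± 0.31 for DL against OMN (adjusted p = 0.00233), and that between L5 and DL was -0.22 (0.763).

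Adcyap1, the precursor of the ligand of Adcyap1r1, had 30.7, 18.4 and 43.4 in L5, 266.8, 19.7 and 90 in DL and 739, 631.9 and 794.9 in OMN. OMN lay above all other arrays, and DL spread widely. The log2 difference was -4.01 ± 0.50 for L5 against OMN (limma adjusted p = 0.0116) and -2.84 ± 0.50 for DL against OMN (adjusted p = 0.0319). Cck, the cholecystokinin precursor, had 168.7, 150.3 and 111.8 in L5, 194.3, 304.7 and 234.8 in DL and 146.7, 242.6 and 97.2 in OMN, with no call (limma adjusted p of 0.907, 0.205 and 0.311).

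The other precursors were at the limit of detection. Hcrt (orexin), Tac4, Gast and Cort did not exceed noise on any array. Trh exceeded it on DL array 2 (19.1) and OMN array 1 (22.6), Avp on DL array 3 (20.5) and Vip on L5 array 3 (32.3). Oxt exceeded it on L5 arrays 1 (22.4) and 3 (31.8) and DL array 1 (36.9).

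**Figure D5:**
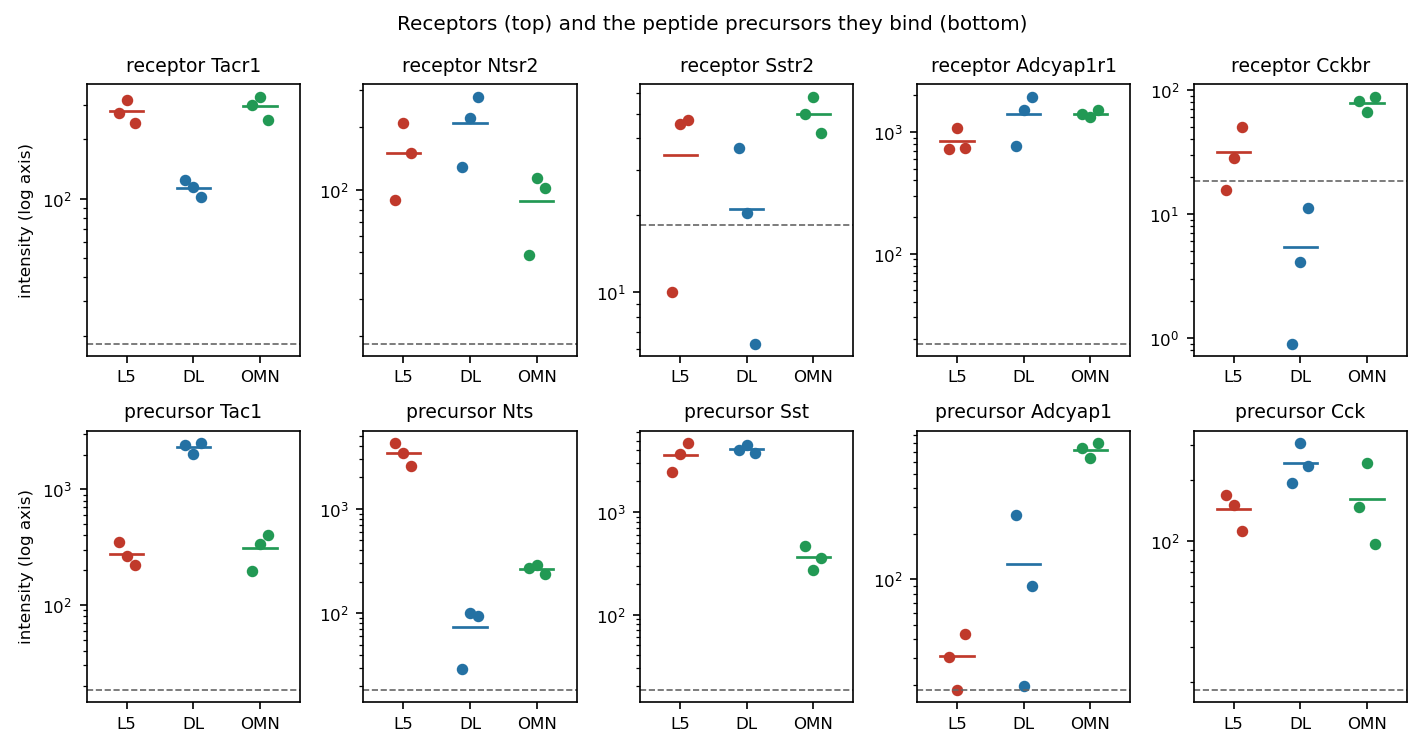
Intensity on each array (log axis, no units) of 5 receptors (top) and the precursor of a peptide each binds (bottom), for L5, DL and OMN, with pool means as bars and the noise level of 18.3 dashed. Tacr1 is lowest in DL where Tac1 is highest, Nts is highest in L5, Sst is lowest in OMN and Adcyap1 is highest in OMN.

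Among 64 other receptors for peptides on a list, 56 were measured and 45 exceeded noise on some array. In L5 against OMN 4 were higher and 1 lower, in L5 against DL 3 were higher and 3 lower, and in DL against OMN 3 were higher and 2 lower. The share called over all genes was 2.15%, 2.52% and 3.00% in that order. The median log2 differences of the 56 were 0.05, 0.10 and -0.11, against 0.01, 0.06 and -0.04 over all genes. Like Trhr, Agtr2 (an angiotensin II receptor) and Npr3 (the natriuretic peptide clearance receptor) were higher in L5 than in both other pools.

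Agtr2 had 257.9, 205.8 and 245 in L5, 50.7, 36.4 and 19.7 in DL and 32.3, 23.7 and 21.3 in OMN, so that L5 stood clear of both. Its log2 difference was 2.6 ± 0.22 for L5 against OMN (limma adjusted p = 0.00266) and 2.33 ± 0.22 for L5 against DL (adjusted p = 0.00506). Npr3 had 734.3, 753.7 and 647.4 in L5, 58, 208.4 and 109.9 in DL and 108.6, 128.4 and 68.4 in OMN. L5 again stood clear, at log2 2.66 ± 0.33 over OMN (limma adjusted p = 0.0112) and 2.51 ± 0.33 over DL (adjusted p = 0.0143). Tacr3, the neurokinin B receptor, had 309.3, 215.6 and 187.7 in L5, 146.1, 13.3 and 102.2 in DL and 34.9, 16.1 and 17.3 in OMN. All L5 arrays lay above the rest, and Tacr3 passed in L5 against OMN (log2 2.71 ± 0.44, limma adjusted p = 0.0278) but not in L5 against DL (1.59 ± 0.44, adjusted p = 0.112).

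Prokr2, a prokineticin receptor, was on the side of Avpr1a, with 4.5, 24.8 and 24.5 in L5, 170.3, 155.9 and 238.7 in DL and 29, 64.4 and 37.5 in OMN. All DL arrays exceeded all others. DL exceeded L5 at least 8.29-fold (log2 -2.64 ± 0.28 for L5 against DL, limma adjusted p = 0.00743) and OMN 4.32-fold (log2 1.80 ± 0.28, adjusted p = 0.0204). Glp1r, the receptor of glucagon-like peptide 1, had 36.2, 5.7 and 13.9 in L5, 219.6, 81.4 and 379.8 in DL and 61.3, 62.5 and 37.3 in OMN. All DL arrays lay above the others, arrays 1 and 3 by the most. Glp1r was called lower in L5 against DL (log2 -2.69 ± 0.45, limma adjusted p = 0.0318).

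Npy2r, a neuropeptide Y receptor, had 137, 91 and 145.6 in L5, 83.8, 51.4 and 112.3 in DL and 22.4, 15.9 and 12.7 in OMN. Both spinal pools exceeded OMN, L5 at least 6.23-fold (limma adjusted p = 0.00878) and DL at least 4.01-fold (adjusted p = 0.0205). Prokr1, the other prokineticin receptor, had 19.2, 17 and 25.7 in L5, 13.5, 13.1 and 26.3 in DL and 49, 128.4 and 120.5 in OMN. OMN stood above both, with a log2 difference of -1.58 ± 0.27 for L5 against OMN (limma adjusted p = 0.0365). DL averaged below noise, and OMN exceeded it at least 4.42-fold (adjusted p = 0.0218). Ednrb, an endothelin receptor known also from astrocytes, averaged 1494 ± 141 in L5, 1180 ± 97.4 in DL and 2639 ± 89.4 in OMN (SD, n = 3 each), and was lower in DL than in OMN (log2 -1.15 ± 0.19, limma adjusted p = 0.0235).

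Downstream of the receptors, 38 of 40 listed G protein and second messenger genes were measured, each above noise on some array. Itpr3, an inositol trisphosphate receptor gene, was below noise on all OMN arrays and exceeded them in L5 at least 2.29-fold. In L5 against OMN 3 were higher (Itpr3, Prkar2b and Rgs4) and 0 lower, with 10 at an unadjusted limma p under 0.05 (2904 of all 18193 genes). In L5 against DL 1 was higher (Gna14) and 0 lower, with 9 at an unadjusted limma p under 0.05 (18.9%). In DL against OMN 2 were higher (Prkar2b and Rgs4) and 0 lower, with 12 at an unadjusted limma p under 0.05 (16.1%). Over all genes 2.15%, 2.52% and 3.00% were called in these comparisons, in that order. Gna14 encodes an alpha subunit of the Gq class, a class that Trhr, Hcrtr2 and Tacr1 signal through. So does Avpr1a, which was lower in L5 than in DL. Gnaq, Gna11 and Gna15, of the same class, were not called in L5 against DL (limma adjusted p of 0.374, 0.806 and 0.576). A link between Gna14 and any receptor was not tested. Gna14 had 960, 972 and 986.3 in L5, 135.6, 198.7 and 288.5 in DL and 501.7, 348.1 and 300.5 in OMN, with L5 above all others. Its log2 difference was 2.20 ± 0.31 for L5 against DL (limma adjusted p = 0.0181) and 1.34 ± 0.31 for L5 against OMN (adjusted p = 0.0905). Rgs4, which speeds the shut-off of Gi and Gq signals, had 2329, 1807 and 1676 in L5, 1570, 1748 and 1601 in DL and 655.7, 662.9 and 647.2 in OMN. Both spinal pools lay above OMN, at log2 1.53 ± 0.19 for L5 (limma adjusted p = 0.0119) and 1.3 ± 0.19 for DL (adjusted p = 0.0164).

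Without DL arrays 1 and 3, of the DL calls named here for precursors, other receptors, G protein genes and second probe sets, Adcyap1 in DL against OMN still passed (log2 -4.07, limma adjusted p = 0.0218) and the rest did not, each with its direction kept. In L5 against DL the log2 differences were then 4.92 for Nts (limma adjusted p = 0.0722), -2.77 for Tac1 (0.105), 2.14 for Agtr2 (0.0826) and 1.90 for Npr3 (0.0911). They were -2.00 for Prokr2 (limma adjusted p = 0.0953), -1.78 for Glp1r (0.162), 2.15 for Gna14 (0.0904) and 2.92 for the second Trhr probe set (0.113). In DL against OMN they were 2.64 for Tac1 (limma adjusted p = 0.0993), 3.76 for Sst (0.0511), 1.25 for Npy2r (0.177) and 1.17 for Prokr2 (0.2003). For Prokr1 the value was -2.03 (limma adjusted p = 0.112), for Ednrb -1.12 (0.160), for Rgs4 1.43 (0.113), for Prkar2b 2.27 (0.0566) and for the second Cckbr probe set -1.39 (0.191). The DL calls of the markers above kept their direction too. In DL against OMN the log2 difference was then 6.03 for Gfap, 4.40 for Scn11a, -2.63 for Slc17a6, 4.35 for Pirt and 2.22 for Pmp22. It was 1.29, 2.24 and 1.02 for the oligodendrocyte genes Cldn11, Ermn and Ugt8a. For Th, Ddc and Slc6a2 it was -2.71, -1.70 and -0.947.

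For each called receptor the 3 genes with the highest Pearson correlation over the 9 arrays are given as a description. The points share arrays and pools, so that any genes with the same order of pools correlate. Closest to Trhr were Npdc1 (0.984), Tmtc1 (0.977) and Psmc2 (0.973), and closest to Hcrtr2 were Lypd6 (0.978), Hhipl1 (0.965) and Ldhb (0.963). Tacr1 was followed by Pde1b (0.985), Usp46 (0.977) and Asah2 (0.972), and Avpr1a by Tmem176b (0.983), Igfbp3 (0.974) and Vim (0.971). Vim, an intermediate filament gene of glia and vessels, averaged 1830 ± 438 in L5, 4787 ± 546 in DL and 1551 ± 109 in OMN (SD, n = 3 each). Cckbr was closest to Matk (0.990), Gpr39 (0.969) and Tril (0.963), and Ntsr2 to Ost4 (0.984), Rasl11b (0.958) and Snx30 (0.931). Lypd6 showed the order of Hcrtr2 at brighter values, with 1180, 1013 and 1037 in L5, 181.1, 159.9 and 147.3 in DL and 294.8, 453 and 405.7 in OMN, and no pool overlapped another.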

How the data were processed

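The authors deposited 1 table of processed intensity values, on a linear scale, for 45101 probe sets of the Affymetrix Mouse Genome 430 2.0 array on 9 arrays. After removal of 2% of values at each end every array averaged 250, so arrays had been scaled to 1 target. Which software summarised the probes was not given in the sources used here. The scaling carries no total RNA per cell, and the number of arrays limits the precision. Per the labels' protocols, at least 1.5 ng of RNA was amplified from 12 µm sections.

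After 64 control probe sets were left out, 45037 remained, 34945 of them annotated to 1 gene, 932 to several and 9160 to none. Where a gene had several, the one with the highest mean log2(intensity + 16) stood for it, which gave 18193 genes. All 9 arrays were fitted in limma 3.58.1 (R 4.3.3; lmFit, contrasts.fit, eBayes) with the pool and, as a block, the replicate number of the titles, and p-values were adjusted by Benjamini-Hochberg over all genes of a comparison. A log2 difference on this scale understates the change of dim genes. The fit was run on simulated arrays with planted differences, the same spread of a gene in every pool and no replicate effect. The planted genes averaged well above noise. That run therefore does not cover genes near noise or the wider spread of DL. Where a pool averaged at or below the noise level (18.3, from 27 control probe sets), the difference is a lower bound, with values raised to that level. "Called" means an adjusted p under 0.05.

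The protocol states that each of 3 animals gave all pools, but no label says that equal numbers mean the same animal, and deviations of same-number arrays correlated between -0.07 and 0.06 (9 pairs, none above 0.1). The data thus do not show pairing, and the block follows the design. Replicates are called biological in the titles.

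Members and lists were chosen with earlier results of these data known. Genes named from a list are up to 4 called per comparison with the smallest p, plus all ligand precursors. Gapdh-based alternatives were chosen after seeing the data. Sequences are from RefSeq, with 9 of 10 receptors matched (Trhr was not), and no genome was used.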

Additional observations from a re-analysis of the deposited data

How the results depend on the processing

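Each of the 30 log2 differences was recomputed under 22 settings. Of the 660 values, 545 kept direction and side of the threshold, 87 kept direction but no longer passed (10 differences were called at the outset), 13 newly passed and 15 turned direction, all of the last among uncalled differences.

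Receptors called in L5 against OMN numbered 1, and 2 with no replicate block, with only the arrays of the 2 pools compared and with array weights. They also numbered 2 with the mean of all probe sets, with every probe set by itself and with the Gapdh covariate. They numbered 3 with trend and robust variances, and 1 to 2 on leaving out single arrays. In L5 against DL there were 4, also 4 with no replicate block and 1 with only the 2 pools. There were 0 by limma with a pseudocount of 1 (5 at an unadjusted p under 0.05) and with the Gapdh covariate (5). Leaving out single arrays gave 0 to 4, with 0 without L5 array 1 (6 at an unadjusted p under 0.05). In DL against OMN there were 5, and 4 with no replicate block, 1 with a pseudocount of 1 and 1 with only the 2 pools. With the Gapdh covariate there were 2, Cckbr and Oxtr, of which Oxtr was not called at the outset. Single arrays left out gave 1 to 3. The pairing by number is not borne out by the arrays, and the block changed the calls of Hcrtr2 (L5 against OMN) and Ntsr2 (DL against OMN) alone.

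Over all genes the calls ranged from 82 to 946 in L5 against OMN, from 0 to 1147 in L5 against DL (459 at the outset) and from 119 to 872 in DL against OMN (545). The share of all genes is not set beside each receptor count above. Fewer receptors called can therefore not be told apart from fewer calls over all genes. Centring each array on its median moved the median log2 difference of all genes from 0.06 to -0.02 in L5 against DL and from -0.04 to 0.11 in DL against OMN. The split of calls then was 194 higher and 298 lower in L5 against DL (228 and 231 at the outset) and 335 and 218 in DL against OMN (247 and 298).

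Differences that turned were Avpr1a in L5 against OMN (-0.094 with the mean of probe sets, -0.074 without L5 array 2), Sstr2 in L5 against OMN (0.076 without L5 array 1) and L5 against DL (-0.013 without L5 array 3), and Ntsr1 in L5 against DL (0.071 without L5 array 1, 0.23 without DL array 3, 0.37 with the Gapdh covariate, 0.79 without DL arrays 1 and 3). Oxtr turned in L5 against DL (0.51 with the Gapdh covariate, 1.08 without DL arrays 1 and 3). Adcyap1r1 turned with the mean of probe sets (0.015 in L5 against OMN, 0.47 in L5 against DL) and in DL against OMN (0.046 with median centring, 0.23 without DL array 1, 0.13 without OMN array 1). On leaving out single arrays these ran from -0.074 to 0.49 for Avpr1a and from -0.92 to 0.076 for Sstr2 in L5 against OMN, from -0.96 to 0.23 for Ntsr1 and from -0.013 to 0.99 for Sstr2 in L5 against DL, and from -0.40 to 0.23 for Adcyap1r1 in DL against OMN. The cause was not tested. With 3 arrays a pool and 4 residual degrees of freedom, values near noise give no reliable order.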
